A study of Homo sapiens with 6 samples.

Results

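Glutathione and thioredoxin are the main thiol systems that keep peroxides in check in the cytosol, and many of their genes are switched on by the transcription factor NRF2. The 10 genes described here are GPX2, GCLC, GCLM, GSR, TXN, TXNRD1, SRXN1, NQO1, HMOX1 and OSGIN1. They were chosen as glutathione, thioredoxin and NRF2 antioxidant genes among 17789 gene symbols listed in at least 1 library. Earlier results of these data were known when the 10 genes were chosen. The genes were measured by RNA sequencing in 3 FOXD3 knockdown and 3 control libraries of cells labelled A549, a line from a human lung carcinoma. In the knockdown group FOXD3, a forkhead transcription factor, was targeted by an siRNA pool delivered with a lipid reagent, and knockdown was checked 72 h after transfection, per the labels' protocols. The control group is labelled wild type, and the labels do not say what its wells received. The design text calls the samples cell lines, the protocols describe a transfection, and separate cultures are nowhere stated. The p-values thus reflect nothing but the scatter among these libraries, possibly a technical one.

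As background, glutathione is made by glutamate-cysteine ligase, a pair of a catalytic (GCLC) and a modifier subunit (GCLM), is used by glutathione peroxidases such as GPX2 and is regenerated by glutathione reductase (GSR). Thioredoxin (TXN) is regenerated by thioredoxin reductase (TXNRD1), and SRXN1 restores over-oxidised peroxiredoxins of the typical 2-Cys kind, such as PRDX1. NRF2 (gene NFE2L2) is held down by KEAP1, which hands it to the CUL3 and RBX1 ubiquitin ligase, and it binds antioxidant response elements together with a small MAF protein, while BACH1 competes for such elements. A549 is known for a KEAP1 change that leaves NRF2 active. Whether the cells used here carry it was not tested.

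Of the 10 genes, 8 have an entry among RefSeq promoter windows on GRCh38.p14, each running from 250 bases before to 50 bases after a transcription start, and TXNRD1 has 2 such windows. GSR and HMOX1 have no entry. Both strands were searched for the core of the antioxidant response element, TGACNNNGC. A second form, bound by NRF2 and BACH1 with small MAF proteins, was also searched for: TGANTCAGC. It has the same length with more fixed bases, and the motifs overlap where the fourth base is C. The core was found in the windows of GPX2, GCLM and TXNRD1, in 4 of the 9 windows, against 13.3% of all 35116 windows. The first TXNRD1 window, which is not printed below, holds 2 core matches, with first bases at -99 and -8 from the transcription start. The second form was found in OSGIN1 alone among these 8 genes, against 1.36% of all windows. Neither was found in the windows of GCLC, TXN, SRXN1 or NQO1, which says only that the letters are not in those 300 bases. The windows below are shown because they set the partners GCLM and GCLC side by side, the 2 genes that rose most (GPX2 and OSGIN1), and the more downstream TXNRD1 window, whose gene did not pass the test. Capitals mark a motif match on either strand, and its first base lies at -122 from the start in GPX2, -34 in GCLM, -99 in OSGIN1 and -102 in the second TXNRD1 window, counted along the gene's strand.
GPX2 (chr14:64942696-64942995, minus strand): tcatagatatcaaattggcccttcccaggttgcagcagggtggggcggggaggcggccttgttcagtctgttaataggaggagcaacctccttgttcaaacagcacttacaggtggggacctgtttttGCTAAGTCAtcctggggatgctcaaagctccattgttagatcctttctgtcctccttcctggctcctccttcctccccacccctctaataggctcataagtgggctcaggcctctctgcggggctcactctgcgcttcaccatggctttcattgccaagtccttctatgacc
GCLM (chr1:93909381-93909680, minus strand): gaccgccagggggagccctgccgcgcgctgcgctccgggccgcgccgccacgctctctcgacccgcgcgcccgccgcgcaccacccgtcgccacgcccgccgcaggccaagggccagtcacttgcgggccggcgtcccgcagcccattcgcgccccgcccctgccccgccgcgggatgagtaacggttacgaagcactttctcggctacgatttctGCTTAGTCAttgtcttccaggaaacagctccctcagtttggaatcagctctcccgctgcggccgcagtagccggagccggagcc
GCLC (chr6:53545052-53545351, minus strand): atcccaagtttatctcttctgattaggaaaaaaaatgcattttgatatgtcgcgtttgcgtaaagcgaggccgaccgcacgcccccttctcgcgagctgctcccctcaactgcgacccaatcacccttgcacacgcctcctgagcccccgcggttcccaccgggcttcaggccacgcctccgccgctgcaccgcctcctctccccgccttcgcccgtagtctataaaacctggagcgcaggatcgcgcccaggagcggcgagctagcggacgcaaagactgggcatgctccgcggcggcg
OSGIN1 (chr16:83952990-83953289, plus strand): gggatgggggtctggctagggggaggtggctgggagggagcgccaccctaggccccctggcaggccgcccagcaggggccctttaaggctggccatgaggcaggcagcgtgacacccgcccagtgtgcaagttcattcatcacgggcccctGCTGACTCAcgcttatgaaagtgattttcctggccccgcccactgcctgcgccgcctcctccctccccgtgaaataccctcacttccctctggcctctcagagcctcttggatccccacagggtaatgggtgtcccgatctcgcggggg
TXNRD1, second window (chr12:104286782-104287081, plus strand): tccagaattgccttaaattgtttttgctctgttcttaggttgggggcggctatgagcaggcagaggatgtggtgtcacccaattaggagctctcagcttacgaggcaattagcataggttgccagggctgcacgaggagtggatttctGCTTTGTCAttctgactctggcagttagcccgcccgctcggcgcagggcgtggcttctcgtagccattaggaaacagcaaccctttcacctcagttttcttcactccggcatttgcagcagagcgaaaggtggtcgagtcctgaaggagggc
The 4 matches in these windows read TGACTTAGC in GPX2, TGACTAAGC in GCLM, TGAGTCAGC in OSGIN1 and TGACAAAGC in TXNRD1 on the strand of the motif, which here is the strand opposite to the gene. A match is a description of the sequence and not a measured binding site.

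Each library came as FPKM, fragments scaled by transcript length and by library size, with no counts. The value of a single fragment in long intronless genes put the depth at 6580000 to 7910000 fragments per library, an estimate that had to fall between 5000000 and 12000000. FOXD3 itself was listed in 1 of 3 knockdown libraries (0.0749 FPKM) and in all 3 control libraries (0.134 to 0.291 FPKM). Its mean over the 6 libraries was 0.109 FPKM, under the 0.5 FPKM filter used below. FOXD3 thus lay near the floor in both groups, and its values say little about the knockdown. An exact permutation test (two-sided) returned p = 0.1, the lowest value possible for 3 against 3. All 5 epithelial markers averaged at least 5 FPKM, none of the 5 alveolar, 5 leukocyte, 4 endothelial and 5 fibroblast markers did, and DCN, LUM and SFTPB were listed in no library. The summed epithelial markers stood at 7215 to 7277 FPKM in knockdown and 5051 to 6021 FPKM in control libraries, most of it KRT8 and KRT18. These 2 and EPCAM were higher in every knockdown library, and KRT19 overlapped between the groups. CDH1 was lower, at 40.9 to 41.9 FPKM in knockdown and 46.5 to 50.2 FPKM in control libraries. The alveolar markers summed to 1.90 to 2.19 FPKM in knockdown and 1.54 to 2.16 FPKM in control libraries. Sums were lower in knockdown for leukocyte markers (1.48 to 2.03 FPKM, against 2.71 to 4.04 FPKM in control libraries), most of it CD14. They were also lower for endothelial markers (1.87 to 2.18 FPKM, against 2.55 to 3.40 FPKM in control libraries), most of it CDH5. Fibroblast markers were lower too (2.94 to 3.48 FPKM, against 3.57 to 4.49 FPKM in control libraries), most of it COL1A1. CDKN2A was at 126 to 129 FPKM in knockdown and 154 to 155 FPKM in control libraries, although A549 is known for a deletion of that gene, so the cells are called here by their label. Small nucleolar RNAs took 1.92%, 4.83% and 1.82% of the FPKM total in knockdown replicates 1, 2 and 3, against 0.975%, 1.53% and 1.04% in control replicates 1, 2 and 3. Knockdown libraries listed 15651 to 15754 symbols and control libraries 16229 to 16288, and the median FPKM of genes listed in all 6 was 7.95 to 8.10 in knockdown and 8.64 to 8.94 in control libraries. The part of these differences, and of those in the markers, in the results was not tested. Of 13340 genes averaging 0.5 FPKM or more, 63.5% passed limma's test of log2(FPKM + 1) at a Benjamini-Hochberg adjusted p under 0.05, so passing it was common; 40.4% of these calls were higher, against 53.5% after median scaling and 52.4% after quantile normalization.

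Of the 10 antioxidant genes, 8 rose in the knockdown libraries and none fell, while 25.6% of all tested genes were called higher and 37.9% lower. The 10 were chosen with earlier results of these data known, so this contrast is a description and carries no test. The 8 were GPX2, OSGIN1, GCLM, HMOX1, GSR, SRXN1, TXN and NQO1, in order of their log2 change. GCLC and TXNRD1 did not pass the test. All 10 were listed in all 6 libraries and passed the filter on low values. In bulk samples a change in the make-up of the cells and a change in RNA per cell cannot be told apart. The median log2 change of the 10 was 0.61, beside -0.087 for all tested genes. Together they made up 0.475% to 0.485% of the FPKM total of a knockdown library and 0.312% to 0.344% of that of a control library. The groups did not overlap in the same 8 genes, which 28.3% of all tested genes showed in that direction, 40.8% in the other and 69.1% in either. Dividing each library by its median moved the median change of all genes by 0.11, and quantile normalization also moved it by 0.11; the 8 genes stayed called higher under both.

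**Figure D1:**
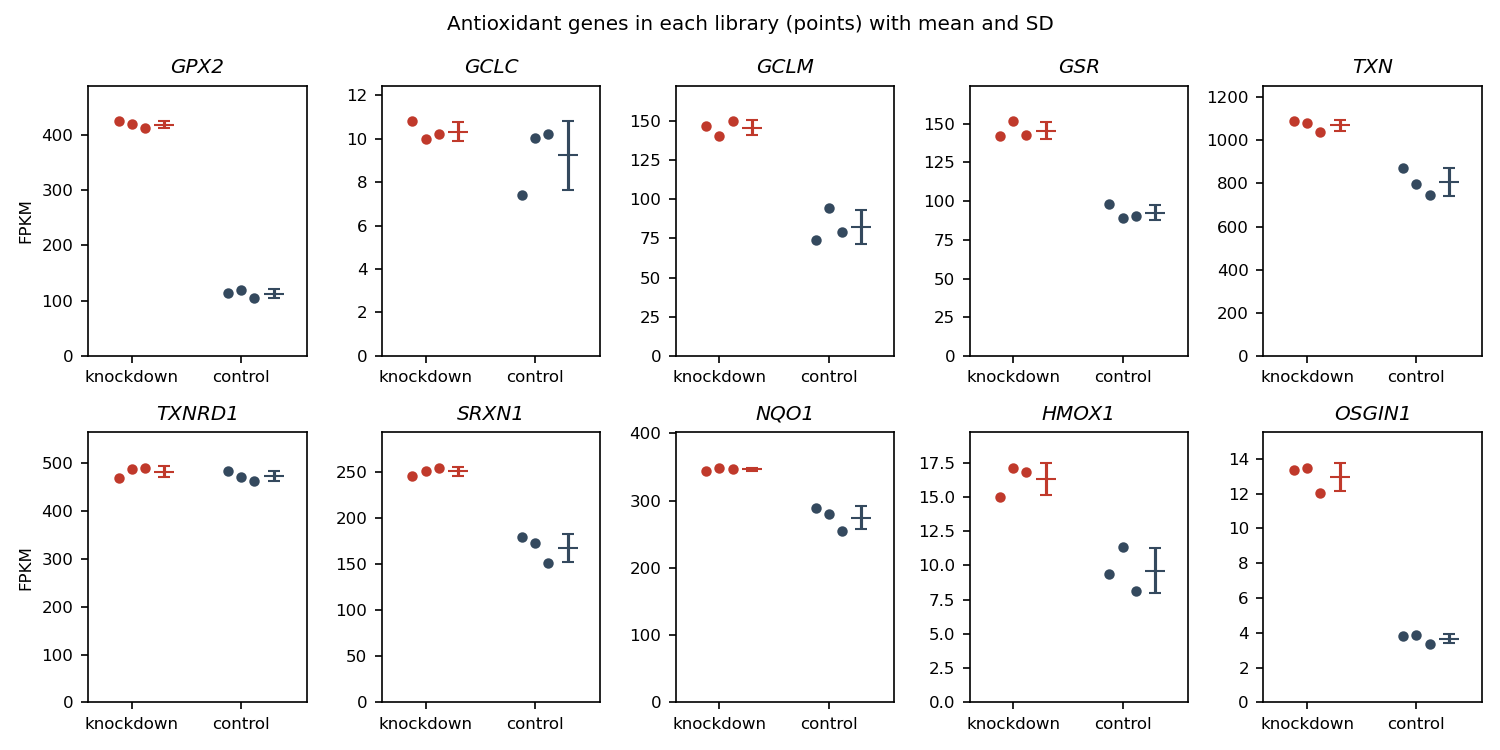
FPKM (y axis, linear from 0) of the 10 genes in the 3 knockdown (left, red) and 3 control libraries (right, dark blue), with points for libraries and a bar for mean and SD. Knockdown points lie above all control points except in GCLC and TXNRD1, where the groups overlap.

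GPX2, a selenium-containing glutathione peroxidase best known from the lining of the gut (Entrez 2877, chromosome 14, 65405872 to 65409531, hg19), changed most. It stood at 424, 419 and 411 FPKM in knockdown replicates 1, 2 and 3, against 113, 119.7 and 104 FPKM in control replicates 1, 2 and 3. Every knockdown value was more than 3 times every control value. The means were 418 ± 6.56 FPKM in knockdown and 112 ± 7.99 FPKM in control libraries (SD, n = 3 each), a 3.73-fold difference, and the log2 change was 1.89 (SE 0.054; limma adjusted p = 3.35e-07). By that change GPX2 ranked 36th from the top among 13340 genes. Its locus lies within that of CHURC1-FNTB, which was at 9.46 ± 1.30 FPKM in knockdown and 6.96 ± 0.211 FPKM in control libraries. No strand setting is given, and how reads were shared at this locus was not tested. The authors' deposited table carries GPX2 under a wider locus, 65381079 to 65569413.

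Glutathione synthesis changed in its modifier subunit. GCLM (Entrez 2730, chromosome 1, 94352590 to 94375012, hg19), which lowers the feedback inhibition of the ligase by glutathione, stood at 147, 141 and 149.9 FPKM in knockdown libraries, against 73.9, 94.7 and 79.0 FPKM in control libraries. All knockdown values were above all control values, and control replicate 2 was the highest of its group. Means were 146 ± 4.65 FPKM in knockdown and 82.5 ± 10.9 FPKM in control libraries (SD, n = 3 each), with a log2 change of 0.82 (SE 0.085; limma adjusted p = 7.12e-05). GCLC (Entrez 2729, chromosome 6, 53362140 to 53409927, hg19), the subunit that carries the active site, was at 10.8, 9.96 and 10.2 FPKM in knockdown libraries and at 7.41, 10.1 and 10.2 FPKM in control libraries. The groups overlapped, and control replicate 1 was the low value. Its log2 change was 0.16 (SE 0.11; limma adjusted p = 0.253). That call depended on the scaling: median scaling gave 0.28 with an adjusted p of 0.0454 (range over 14 alternatives 0.0454 to 0.777). GSR (Entrez 2936, chromosome 8, 30535580 to 30585486, hg19), which returns oxidised glutathione to its reduced form, stood at 142, 152 and 143 FPKM in knockdown libraries, against 98.3, 89.2 and 90.2 FPKM in control libraries. It rose 1.57-fold without overlap of the groups, a log2 change of 0.65 (SE 0.051; limma adjusted p = 1.85e-05).

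In the thioredoxin system TXN and SRXN1 rose and TXNRD1 did not pass the test. TXN (Entrez 7295, chromosome 9, 113006092 to 113018920, hg19), the small protein that reduces peroxiredoxins and other thiol proteins, was the most abundant of the 10 per unit length, at 1089, 1081 and 1039.7 FPKM in knockdown libraries, against 873, 797 and 746 FPKM in control libraries. Its log2 change was 0.41 (SE 0.058; limma adjusted p = 0.000403), 1.33-fold by mean FPKM. TXN has processed pseudogenes, so how reads were shared with them can change its values. TXNRD1 (Entrez 7296, chromosome 12, 104609559 to 104744062, hg19), the NADPH-dependent selenoenzyme that recharges TXN, was at 468, 487 and 490.1 FPKM in knockdown libraries and at 483, 471 and 463 FPKM in control libraries. These groups overlapped throughout, with means of 482 ± 11.9 FPKM in knockdown and 472 ± 9.90 FPKM in control libraries (SD, n = 3 each). The log2 change was 0.029 (SE 0.037; limma adjusted p = 0.523), and its sign depended on the scaling, at 0.16 after median scaling (adjusted p = 0.0158) and -0.098 after quantile normalization (adjusted p = 0.0466; range over 14 alternatives 0.0158 to 0.779). EID3, inside the TXNRD1 locus, was at 3.27 ± 0.549 FPKM in knockdown and 2.84 ± 0.317 FPKM in control libraries. SRXN1 (Entrez 140809, chromosome 20, 627268 to 633890, hg19), sulfiredoxin, measured 246, 251 and 254 FPKM in knockdown libraries, against 179.6, 173 and 151 FPKM in control libraries. Control replicate 3 was the lowest of all 6, and the groups were apart. SRXN1 rose 1.49-fold, a log2 change of 0.58 (SE 0.064; limma adjusted p = 0.000106).

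Ratios of partners were taken within each library, where a factor common to a whole library drops out. They were chosen with the unequal changes above known, so they restate these per library and carry no test. GCLM over GCLC, both per length, was 13.6, 14.1 and 14.7 in knockdown libraries, against 9.97, 9.42 and 7.72 in control libraries. TXN over TXNRD1 was 2.33, 2.22 and 2.12 in knockdown libraries, against 1.81, 1.69 and 1.61 in control libraries. Both ratios were higher in every knockdown library than in any control library. The means were 14.1 ± 0.558 in knockdown and 9.04 ± 1.17 in control for GCLM over GCLC, and 2.22 ± 0.102 in knockdown and 1.70 ± 0.0997 in control for TXN over TXNRD1 (SD, n = 3 each). Of the other ratios, SRXN1 over TXN was 0.234 ± 0.0097 in knockdown and 0.208 ± 0.00754 in control libraries, and GSR over GCLM was 1.00 ± 0.0681 in knockdown and 1.14 ± 0.195 in control libraries, the last with overlapping groups.

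**Figure D2:**
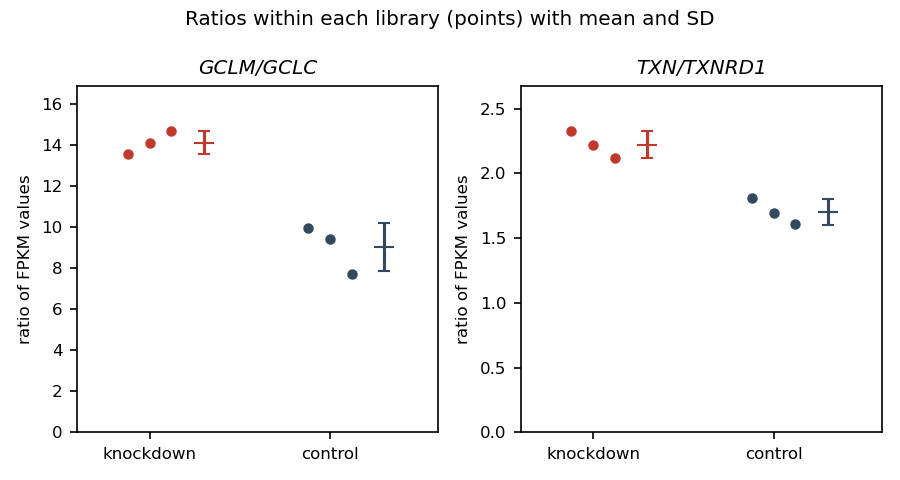
Ratios of FPKM values within a library (y axis, from 0) for GCLM over GCLC and TXN over TXNRD1, with points for the 3 knockdown (left) and 3 control libraries (right) and a bar for mean and SD. Knockdown points lie at 13.6 to 14.7 and 2.12 to 2.33, above the control points at 7.72 to 9.97 and 1.61 to 1.81.

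The remaining 3 NRF2 target genes act outside the thiol cycles, and all rose. OSGIN1 (Entrez 29948, chromosome 16, 83986827 to 83999937, hg19), named for growth inhibition under oxidative stress, stood at 13.4, 13.5 and 12.1 FPKM in knockdown libraries, against 3.80, 3.86 and 3.36 FPKM in control libraries. The groups were far apart, with means of 13.0 ± 0.791 FPKM in knockdown and 3.67 ± 0.271 FPKM in control libraries (SD, n = 3 each). On the log2(FPKM + 1) scale, which understates low genes, the change was 1.58 (SE 0.079; limma adjusted p = 2.26e-06), and with a pseudocount of 0.1 it was 1.79, against 1.90 for GPX2. At the estimated depth, and with the length of the longest transcript, the lowest OSGIN1 value rests on about 58 fragments and the highest on about 233. HMOX1 (Entrez 3162, chromosome 22, 35777060 to 35790207, hg19), which opens haem to biliverdin, iron and carbon monoxide, stood at 15.0, 17.1 and 16.8 FPKM in knockdown libraries, against 9.39, 11.3 and 8.12 FPKM in control libraries. Its groups did not overlap, though its spread within each group was wide for this set. The log2 change was 0.71 (SE 0.11; limma adjusted p = 0.000699), 1.69-fold by mean FPKM. NQO1 (Entrez 1728, chromosome 16, 69743304 to 69760533, hg19), a flavoenzyme that reduces quinones, was at 345, 349 and 347 FPKM in knockdown libraries, against 289, 280.2 and 255 FPKM in control libraries. It showed the smallest called rise of the 8, 1.26-fold, with a log2 change of 0.34 (SE 0.050; limma adjusted p = 0.000524).

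**Figure D3:**
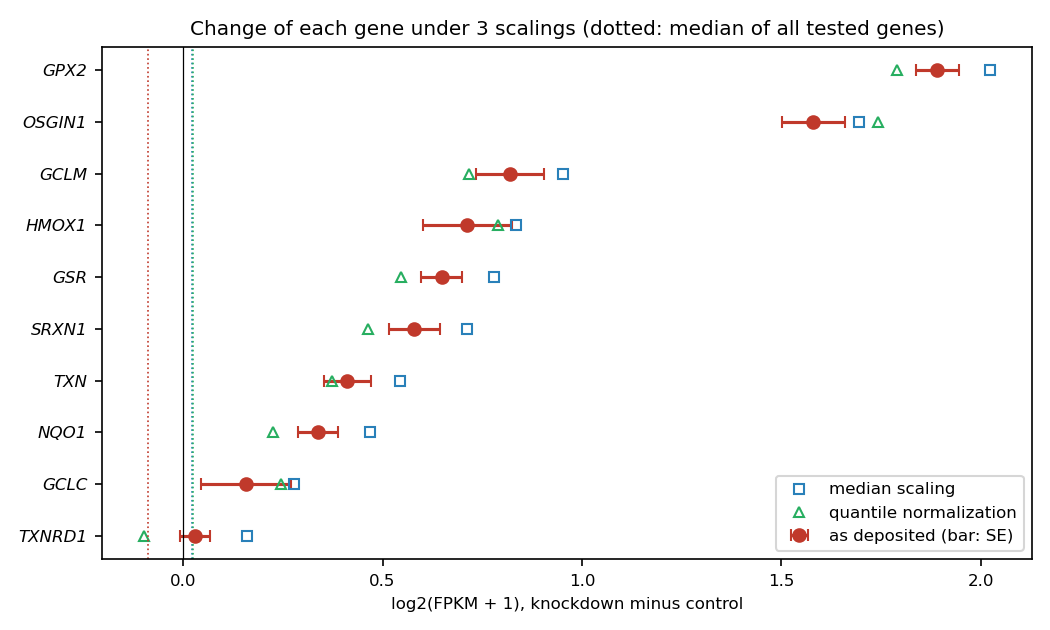
Log2(FPKM + 1), knockdown minus control (x axis), for the 10 genes (rows) with values as deposited (circles, bar SE), after median scaling (squares) and after quantile normalization (triangles); dotted lines mark the median of all tested genes under each. GPX2 and OSGIN1 stand apart at 1.53 or above under all 3, and TXNRD1 lies at 0.029, 0.16 and -0.098.

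The order of the levels, per length, was TXN, TXNRD1, GPX2, NQO1, SRXN1, GCLM, GSR, HMOX1, OSGIN1 and GCLC in the knockdown libraries. In that order GCLM and GSR did not differ beyond their spread, at 146 ± 4.65 and 146 ± 5.32 FPKM. In the control libraries it was TXN, TXNRD1, NQO1, SRXN1, GPX2, GSR, GCLM, HMOX1, GCLC and OSGIN1, where GSR and GCLM, and HMOX1 and GCLC, lay within their spread. GPX2 thus stood above NQO1 and SRXN1 in knockdown and below both in control libraries. Among all listed symbols TXN ranked 96th to 99th in knockdown and 110th to 122nd in control libraries. The coefficient of variation within a group ran between 0.614% (NQO1) and 7.15% (HMOX1) in knockdown libraries and between 2.10% (TXNRD1) and 17.2% (GCLC) in control libraries. It was lower in knockdown for 9 of the 10 genes, and how often this holds among all genes was not counted.

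The authors' deposited table gives 1 value per group and its own test. In it 6 of the 10 genes had a false discovery rate under 0.05, all 6 higher in knockdown, beside 10.9% of its 12275 genes. Log2 fold changes in the authors' deposited table were 2.00 for GPX2, 1.97 for OSGIN1, 0.92 for HMOX1, 0.91 for GCLM, 0.76 for GSR and 0.70 for SRXN1. TXN (0.50, false discovery rate 0.093) and NQO1 (0.43, false discovery rate 0.185), which passed limma's test here, did not pass in the authors' deposited table. GCLC (0.26) and TXNRD1 (0.12) did not pass there either.

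Among 9160 genes averaging 5 FPKM or more, the one whose centred log2 profile over the 6 libraries lay nearest to each member was sought. GPX2 lay nearest to ATAD3B (root mean square difference 0.0708 on the log2 scale), which has near-identical copies, OSGIN1 to HR (0.0423) and GCLM to DEPDC1 (0.0328). HMOX1 lay nearest to DDX49 (0.0288), GCLC to ZNF148 (0.0222), SRXN1 to C14orf21 (0.0210) and GSR to CLPTM1 (0.0197). For NQO1 it was RBM17 (0.0189), for TXNRD1 ENTPD6 (0.0166) and for TXN TUBA4A (0.0131). With 2 groups of 3 libraries such a profile holds little more than the size of the group difference.

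The regulators of NRF2 were read next, as a list of 15 genes that all passed the filter: 5 rose (33.3%), 7 fell (46.7%) and 3 did not pass the test. These shares lie near those of all tested genes, 25.6% higher and 37.9% lower, and after median scaling 7 were called higher and 6 lower. NFE2L2, the gene for NRF2, was at 45.0 ± 1.74 FPKM in knockdown and 42.5 ± 4.33 FPKM in control libraries (SD, n = 3 each), with a log2 change of 0.086 (SE 0.076; limma adjusted p = 0.351); after median scaling alone it was called higher, at 0.22 (adjusted p = 0.0265; range over 14 alternatives 0.0265 to 0.996). All 3 parts of the ligase that removes NRF2 rose. KEAP1 stood at 55.6 ± 1.60 FPKM in knockdown and 43.2 ± 2.85 FPKM in control libraries, a log2 change of 0.36 (SE 0.057; limma adjusted p = 0.000773), and CUL3 and RBX1 changed by 0.41 and 0.58. PGAM5, a mitochondrial phosphatase that binds KEAP1, and DPP3, a peptidase that also binds it, rose by 0.96 and 0.47.

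BACH1, the repressor that shares elements with NRF2, fell. It stood at 6.63 ± 0.488 FPKM in knockdown and 14.9 ± 2.09 FPKM in control libraries (SD, n = 3 each), a log2 change of -1.06 (SE 0.10; limma adjusted p = 4.87e-05). Of the small MAF partners, MAFF was at 15.4 ± 0.804 FPKM in knockdown and 36.0 ± 1.67 FPKM in control libraries, a log2 change of -1.18 (limma adjusted p = 2.64e-06), and MAFK changed by -0.36. MAFG did not pass the test, at 36.1 ± 1.01 FPKM in knockdown and 34.3 ± 2.80 FPKM in control libraries, and was called higher after median scaling alone (adjusted p = 0.0158, range over 14 alternatives 0.0158 to 0.902). NFE2L1 and NFE2L3, relatives of NRF2, fell by 0.78 and 0.99 on the log2 scale. BTRC and GSK3B, which mark NRF2 for removal without KEAP1, changed by -0.49 and -0.25, and the GSK3B call was lost after median scaling (adjusted p = 0.0909). SQSTM1, the autophagy receptor that can sequester KEAP1, was at 354 ± 6.68 FPKM in knockdown and 367 ± 37.9 FPKM in control libraries and did not pass the test.

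**Figure D4:**
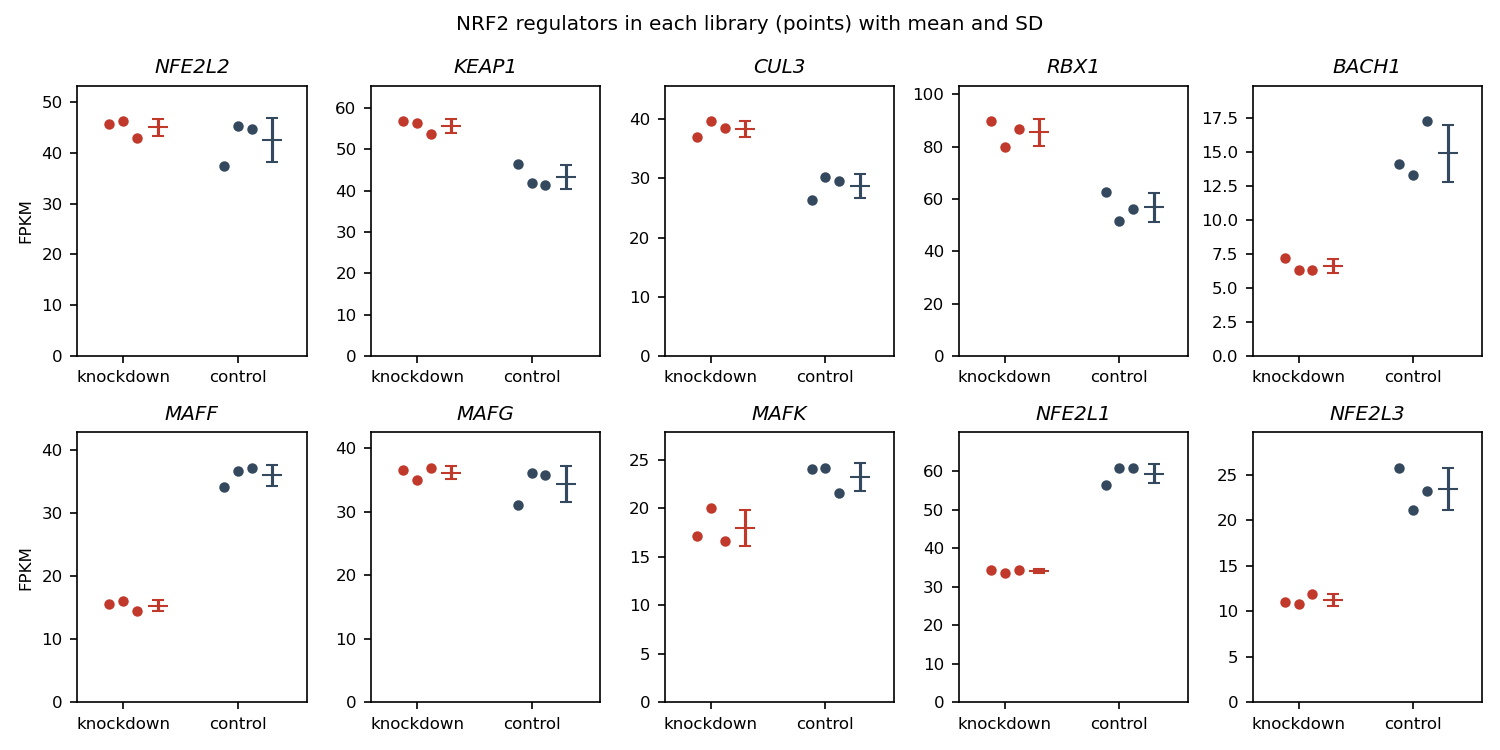
FPKM (y axis, linear from 0) of 10 NRF2 regulators in the 3 knockdown (left, red) and 3 control libraries (right, dark blue), with points for libraries and a bar for mean and SD. BACH1, MAFF, MAFK, NFE2L1 and NFE2L3 lie lower and KEAP1, CUL3 and RBX1 higher in every knockdown library, while NFE2L2 and MAFG overlap.

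Other NRF2 target genes were higher more often than lower. Of 34, all tested, 20 rose (58.8%), 6 fell (17.6%) and 8 did not pass. The median log2 change of the 34 was 0.28. This list, like the others here, was chosen with earlier results of these data known, so its count is a description and carries no test. The largest changes were in UGDH (1.60), which makes UDP-glucuronic acid, ALDH1A1 (1.60), a retinaldehyde dehydrogenase, and AKR1B1 (-1.26), an aldose reductase. Over all 155 tested genes of the lists outside the 10, 58 rose (37.4%) and 56 fell (36.1%), with a median of 0.050, beside 25.6% and 37.9% of all tested genes. After median scaling 79 were called higher and 44 lower.

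The peroxiredoxins, peroxide-reducing enzymes many of which depend on TXN, split. PRDX1 stood at 1970.0 ± 30.9 FPKM in knockdown and 1181 ± 70.7 FPKM in control libraries (SD, n = 3 each), a log2 change of 0.74 (SE 0.048; limma adjusted p = 7.16e-06), and like TXN it has processed pseudogenes. PRDX4, of the endoplasmic reticulum, rose by 0.83 and PRDX2 by 0.24 on the log2 scale. PRDX5 fell to 279 ± 4.21 FPKM in knockdown, against 504 ± 2.90 FPKM in control libraries, a log2 change of -0.85 (limma adjusted p = 1.02e-06). PRDX3 and PRDX6 did not pass the test, at 149.8 ± 5.62 and 196 ± 8.15 FPKM in knockdown and 145 ± 1.79 and 197 ± 2.98 FPKM in control libraries; median scaling alone called both higher. Of 25 tested genes in the list of other thioredoxin and peroxiredoxin genes, 8 rose (32%) and 5 fell (20%), beside 25.6% and 37.9% of all tested genes. TXNRD3 (-0.98) and SESN2 (-0.95), a stress-induced sestrin, were among those that fell. After median scaling 15 of the list were called higher, beside 4541 of all 13340 tested genes. Without knockdown replicate 3, or without control replicate 3, 5 of the list were called higher.

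Other glutathione genes were mixed, with 8 higher and 11 lower of 22 tested (11 higher and 10 lower after median scaling). All tested genes, with 3417 higher and 5050 lower, also leaned to lower values. CHAC1 and CHAC2, enzymes that cleave glutathione, moved apart: CHAC1 was at 4.38 ± 0.242 FPKM in knockdown and 21.1 ± 0.737 FPKM in control libraries, and CHAC2 at 7.44 ± 1.05 FPKM in knockdown and 2.45 ± 1.46 FPKM in control libraries (SD, n = 3 each). OPLAH, which recovers glutamate from 5-oxoproline, fell (-1.28), and so did GSS, glutathione synthetase (-0.22), whose call was lost after median scaling (adjusted p = 0.161). SLC7A11, the cystine importer that feeds glutathione synthesis, was at 56.6 ± 1.82 FPKM in knockdown and 43.5 ± 10.2 FPKM in control libraries. Its log2 change of 0.40 (limma adjusted p = 0.0439) kept its call in 6 of 14 alternatives (range 0.00935 to 0.111). The losses included those without knockdown replicate 1, 2 or 3 (limma adjusted p 0.101, 0.0781, 0.111) and without control replicate 3 (0.067).

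Glutathione S-transferases, which conjugate glutathione to other molecules, were lower in 9 (60%) and higher in 4 (26.7%) of 15 tested, beside 37.9% lower and 25.6% higher among all tested genes, with a median of -0.28. GSTM4 (-1.24), GSTT2 (-0.78) and GSTK1 (-0.75) fell most, the first 2 with close paralogs that can share reads. GSTT2 was low throughout, at 1.06 ± 0.477 FPKM in knockdown and 2.49 ± 0.383 FPKM in control libraries. The abundant GSTP1 was at 1167 ± 52.3 FPKM in knockdown and 1162 ± 63.7 FPKM in control libraries and did not pass the test, while microsomal MGST1 was at 812 ± 27.1 FPKM in knockdown and 529.6 ± 44.1 FPKM in control libraries (log2 change 0.62). Of the other glutathione peroxidases 4 of 7 were tested. GPX1, the common cytosolic form, rose to 401 ± 3.23 FPKM in knockdown, against 319 ± 7.55 FPKM in control libraries (0.33 on the log2 scale; limma adjusted p = 9.26e-05). GPX4, which reduces lipid peroxides, changed by 0.11 (-0.0038 after quantile normalization). Its call was kept in 9 of 14 alternatives (limma adjusted p 0.000813 to 0.937). The losses included those without any 1 of the knockdown replicates (limma adjusted p 0.0569 to 0.0906). GPX8 of the endoplasmic reticulum changed by -0.82.

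SOD2, the manganese superoxide dismutase of mitochondria, fell to 49.2 ± 1.21 FPKM in knockdown, against 227 ± 24.5 FPKM in control libraries (SD, n = 3 each), a log2 change of -2.17 (SE 0.074; limma adjusted p = 5.15e-07). SOD1, its cytosolic counterpart, and catalase (CAT) rose by 0.26 and 0.21 on the log2 scale, CCS, the copper chaperone of SOD1, fell by 0.36, and secreted SOD3 changed by -0.38 with overlapping groups. Without knockdown replicate 2 or 3, or without control replicate 3, 1 gene of this list of 5 was called higher in place of 2. The SOD3 call was lost with no filter (adjusted p = 0.066), after median scaling (0.113), after quantile normalization (0.334, log2 change -0.16), without knockdown replicate 1 (adjusted p = 0.104) or 2 (0.0985) and without control replicate 1 (0.0921) or 3 (0.0676; range over 14 alternatives 0.0175 to 0.334).

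**Figure D5:**
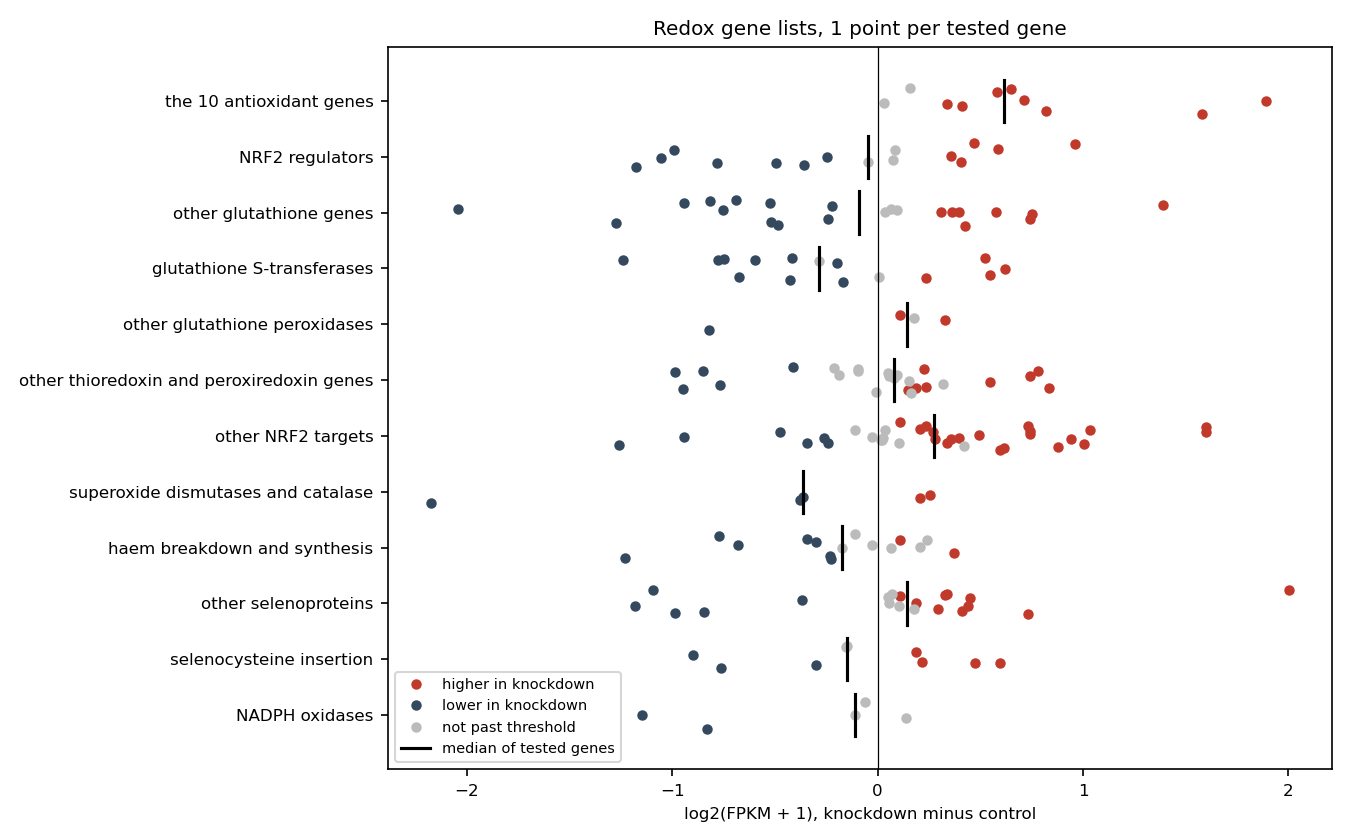
Log2(FPKM + 1), knockdown minus control (x axis), with 1 point per tested gene for the 10 antioxidant genes and 11 redox gene lists (rows), coloured by limma call at an adjusted p of 0.05, and a black line at the median. The 10 antioxidant genes hold 8 called higher and none lower, while the lists of glutathione S-transferases and other glutathione genes hold more lower than higher, as do all tested genes (3417 higher, 5050 lower); for the other glutathione genes median scaling turns this to 11 higher and 10 lower.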

How the data were processed

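RNA sequencing libraries from cells labelled A549 (3 FOXD3 knockdown, 3 control, grouped by the genotype in the labels) were used as deposited; replicates were numbered here, in the order of the sample records, and the numbers pair no libraries. Per the file headers, the authors deposited FPKM for each library. Their comparison table adds, as deposited, FPKM of each group, log2 fold changes, p-values and false discovery rates. The submitters' processing notes list TopHat2 2.0.12, Bowtie, Cufflinks 2.0.2, Cuffdiff and hg19 without roles; the annotation, strand setting and read length were not stated in the labels or headers. FPKM was summed over the rows of a symbol, and a symbol not listed was set to 0.

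Symbols with a mean of at least 0.5 FPKM were tested on log2(FPKM + 1) with limma 3.58.1 in R 4.3.3 (trended eBayes, two-sided tests, adjusted by Benjamini-Hochberg over all 13340 genes). The fit was also run on simulated data with far fewer changed genes than were called here, and no result rests on that run. Whole reads cannot be recovered from FPKM, so no count model was used. Depth was estimated from 97 intronless genes of at least 2500 bp (lengths close to GENCODE 29), 4 to 9 of which gave a value in each library. The members and lists were chosen with earlier results of these data known. Named genes were the 10 members, FOXD3, CDKN2A, the NRF2 regulators, up to 3 called genes with the largest change per list, and the gene nearest in profile to each member. PRDX1, PRDX2, PRDX3, PRDX4, PRDX6, SLC7A11, GSS, MGST1, GSTP1, SOD1, CAT and the cell type markers given by name were named after their values were seen. Locus starts are 1-based on hg19, and promoter windows come from RefSeq on GRCh38.p14; no coordinate was converted. Alternatives covered the pseudocount, the filter, scaling, the variance model and leaving out each library. A result for 1 listed gene is not reported here.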

Additional observations from a re-analysis of the deposited data

How the results depend on the processing

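Of the 10 genes, 8 were called higher under 13 of 14 alternatives and 10 under median scaling; 0 were called lower except under quantile normalization, where 1 was, TXNRD1 at -0.098. Among all tested genes 3417 were called higher and 5050 lower (40.4% of calls higher); a filter at 5 FPKM gave 3295 lower (47.4% higher), with fewer genes tested, while median scaling gave 53.5% and quantile normalization 52.4%. Over 74 named genes and these alternatives, 998 of 1029 values kept their side of the threshold, with the same direction where called, 21 lost the call, 7 gained it and 3 changed sign with a call before or after: TXNRD1, GPX4 (-0.0038 after quantile normalization) and PRDX6 (0.12 after median scaling, adjusted p = 0.0371, range over its alternatives 0.0371 to 0.951). The cause of these changes was not tested. No paired analysis was possible because the labels give no replicate numbers; those used here were assigned in the order of the sample records and pair nothing. Without counts, depth is known only by a rough estimate, and OSGIN1, HMOX1 and GCLC rest on the fewest fragments.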

Other observations

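A list of genes of haem metabolism beyond HMOX1, which also holds genes of iron storage and export, was lower more often than higher in knockdown. Of 15 tested, 2 were higher (13.3%) and 7 lower (46.7%), beside 25.6% higher and 37.9% lower among all tested genes. Median scaling turned this to 5 higher and 4 lower. ALAS1, the first enzyme of haem synthesis, stood at 27.7 ± 0.526 FPKM in knockdown and 48.1 ± 1.68 FPKM in control libraries (SD, n = 3 each), a log2 change of -0.77 (limma adjusted p = 5.71e-06). PPOX, a later enzyme of the same route, changed by -1.23, and BLVRA, which reduces the biliverdin that HMOX1 releases, by -0.68. The count of higher genes was 1 with no filter, without a variance trend, without knockdown replicate 1 or 3 or without control replicate 3, and 4 after quantile normalization.

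GPX2 and TXNRD1 are selenoproteins, and of 20 tested others (of 22 listed) 10 were higher (50%) and 5 lower (25%). Among all tested genes 25.6% were called higher and 37.9% lower. DIO2, a deiodinase that activates thyroid hormone, rose by 2.00 on the log2 scale, and DIO3, which inactivates it, fell by 1.18. DIO3 was low throughout, at 0.158 ± 0.137 FPKM in knockdown and 1.62 ± 0.209 FPKM in control libraries. SEPP1, the secreted selenium carrier, was likewise low, at 0.208 ± 0.0899 FPKM in knockdown and 1.62 ± 0.561 FPKM in control libraries. Of 9 genes for selenocysteine insertion 4 were higher (44.4%) and 3 lower (33.3%), beside 25.6% higher and 37.9% lower among all tested genes. Among these 9 were SARS (-0.90), the seryl-tRNA synthetase, SEPSECS (-0.76), which makes selenocysteine on its tRNA, and SCLY (0.60), which recycles selenium. SEPSECS was low, at 1.33 ± 0.333 FPKM in knockdown and 2.93 ± 0.0638 FPKM in control libraries. Among NADPH oxidase genes 5 of 12 passed the filter; NOXA1 (-1.15), an activator of these oxidases, fell, and 0 rose by limma, with 0 also at an unadjusted p under 0.05 and 1 called higher after quantile normalization.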
